A study of Homo sapiens with 12 samples.

Results

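The alpha and beta tubulin isotypes described here were the 10 genes TUBA1A, TUBA1B, TUBA1C, TUBA4A, TUBB, TUBB2A, TUBB2B, TUBB3, TUBB4B and TUBB6, chosen by name from the 19973 genes of the expression table. Of the 10 genes, 4 encode alpha and 6 encode beta tubulins, and each passed the filter on low values, a mean over the compared libraries of 0.1 FPKM or more, in every comparison. RNA-seq was performed on H460 and A549, established human non-small cell lung cancer (NSCLC) lines whose genotype is given as WT. The study states that both lines have homozygous inactive mutations of KEAP1, so WT does not describe that gene. Cells were either non-treated (control) or exposed to isovalerylspiramycin I (ISP-I), a macrolide and main component of the antibiotic carrimycin, at 10 µM for 48 h. The 4 groups were H460 control, H460 ISP-I, A549 control and A549 ISP-I, with 3 libraries each and 12 in all. The controls are described as non-treated, so the effect of the solvent of ISP-I cannot be told apart from that of ISP-I itself, and each line is a single cell line.

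Tubulin is a dimer of an alpha and a beta subunit, and these dimers assemble into microtubules, the filaments of the mitotic spindle and of intracellular transport. The isotypes differ mostly in their short acidic C-terminal tails, which carry modifications and contact motors and microtubule-associated proteins. Cells hold the free dimer near a set level by autoregulation: when free tubulin is in excess, TTC5 recognises the first residues of nascent alpha and beta chains on the ribosome, and the mRNA being translated is degraded. Beta tubulin is the target of taxanes and vinca alkaloids, drugs used against NSCLC.

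The sequence at which autoregulation reads the chain is encoded by the first codons, so the first 30 coding bases of the isotypes are shown, with the first 4 codons in capitals. They were read from the GENCODE version 44 MANE Select transcripts on hg38. TUBA1A, TUBA1B and TUBA1C have the same 30 bases, given once under TUBA1B, and their first coding bases are at chr12:49188979, chr12:49131300 and chr12:49265182. The others begin at chr2:219253858 (TUBA4A), chr6:30720507 (TUBB), chr6:3157463 (TUBB2A), chr6:3227543 (TUBB2B), chr16:89923402 (TUBB3), chr9:137241361 (TUBB4B) and chr18:12308293 (TUBB6). TUBA1A, TUBA1B, TUBA4A, TUBB2A and TUBB2B lie on the minus strand and the other 5 on the plus strand. In the alpha genes the first coding exon holds only the start codon, while in the beta genes it holds 57 coding bases.
TUBA1B: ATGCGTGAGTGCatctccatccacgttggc
TUBA4A: ATGCGTGAATGCatctcagtccacgtgggg
TUBB: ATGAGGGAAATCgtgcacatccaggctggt
TUBB4B: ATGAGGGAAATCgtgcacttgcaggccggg
TUBB3: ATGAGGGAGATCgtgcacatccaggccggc
TUBB6: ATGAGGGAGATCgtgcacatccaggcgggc
TUBB2A: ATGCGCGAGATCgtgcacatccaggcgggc
TUBB2B: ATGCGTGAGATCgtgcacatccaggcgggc
The capitals are identical between TUBB and TUBB4B and between TUBB3 and TUBB6. Their differences within the alpha isotypes, and within the beta isotypes, do not change the encoded residues.

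The other end of the coding sequence encodes the tail, so the last 48 coding bases before the stop codon are shown for some of the isotypes that set the results below, with the last codon in capitals. TUBA1C, at chr12:49273177-49273224, ends in a tyrosine codon, whereas TUBA4A, at chr2:219250355-219250402, ends in a glutamate codon. It therefore encodes an alpha chain without the final tyrosine that the vasohibins remove and that TTL puts back. The beta tails shown are those of TUBB at chr6:30724347-30724394, TUBB4B at chr9:137243506-137243553, TUBB2A at chr6:3153866-3153913 and TUBB3 at chr16:89935754-89935801. Each lies in the last coding exon on hg38, and each is printed on the coding strand.
TUBA1C: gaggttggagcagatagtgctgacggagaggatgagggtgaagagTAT
TUBA4A: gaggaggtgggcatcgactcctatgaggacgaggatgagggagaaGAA
TUBB: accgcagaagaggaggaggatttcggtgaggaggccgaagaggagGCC
TUBB4B: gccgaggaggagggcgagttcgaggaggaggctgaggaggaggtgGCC
TUBB2A: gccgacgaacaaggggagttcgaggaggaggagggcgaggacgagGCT
TUBB3: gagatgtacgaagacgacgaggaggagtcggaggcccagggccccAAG
TUBB and TUBB3 were 81.7% identical over the coding sequence and 48.1% identical over these tails, whereas TUBB2A and TUBB2B were 97.9% identical over theirs.

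The isotypes are close copies, which bears on how reads are assigned to them. TUBA1A and TUBA1B were 97.2% identical over the coding sequence, and TUBA1C was 95.9% and 96.8% identical to them. TUBB2A and TUBB2B were 98.1% identical, whereas TUBB was 81.0% to 84.7% identical to the other beta isotypes. Among windows of 150 bases, the length of 1 read, 48.7% of those in the TUBB2A transcript and 41.6% of those in TUBB2B also occurred in a transcript of another gene, chiefly each other. The share was 19.1% for TUBA1B, 8.0% for TUBA1A, 7.2% for TUBA1C, 2.7% for TUBB and 2.3% for TUBB3, and it was 0 for TUBA4A, TUBB4B and TUBB6. Genes that overlap a member on the same strand were left out of this share. The value for TUBB3 therefore does not count the protein-coding gene that overlaps it on its own strand, and may be too low. TUBA1B also lies wholly within TUBA1B-AS1, a noncoding gene on the opposite strand that covers 64.2% of its windows, and TUBA4A shares 25.2% of its windows with STK16. Genes on the opposite strand also covered 18.3% of the windows of TUBA1C, 16.5% of those of TUBB and 7.0% of those of TUBA1A, and a protein-coding gene on the same strand overlapped TUBB3 over 14701 bases. Whether the counting used strand is not stated, so reads of such pairs may not be told apart. The levels of TUBA1A, TUBA1B, TUBA1C, TUBA4A, TUBB, TUBB2A, TUBB2B and TUBB3 are uncertain to that extent, and the part of such reads in the results was not tested.

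Depth ranged from 14225849 to 17874422 reads per library, recovered as whole reads from the FPKM values (reads scaled by gene length and library total). The epithelial keratins KRT8 and KRT18 were at 168.0 to 748.3 and 66.9 to 418.4 FPKM in the 12 libraries, whereas EPCAM and CDH1 were at means of 0.0473 and 0 FPKM in H460 controls and 1.91 and 4.90 FPKM in A549 controls. Among markers of other cell types, PTPRC, CD3E, PECAM1, DCN and COL1A2 were at or below 0.0368 FPKM in each library, while CD14 reached 6.43 FPKM, VWF 0.368 FPKM, CDH5 0.145 FPKM and COL1A1 1.30 FPKM, and their part in the results was not tested. In H460, the median log2 fold change over all genes tested was -0.15, and it was 0.01 after scaling each library by median-of-ratios factors, so rises of H460 isotypes below are larger and falls smaller on that scale. In A549 it was 0.02. Libraries 3 of H460 ISP-I, H460 control and A549 control stood apart for several isotypes, and values without them are given where a call turned on them. The labels do not say that the libraries came from separate cultures, so p values measure the spread between these libraries, which may be technical.

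In non-treated cells of both lines, beta tubulin mRNA was dominated by TUBB4B and TUBB, which encode broadly expressed isotypes. TUBB2B and TUBB3, known from neurons, were scarce, whereas TUBB2A and TUBA1A, also found in neural tissue, were at higher levels. FPKM is scaled by a deposited gene length, which exceeds the MANE Select transcript by unlike amounts. The lengths were 4430 against 1706 bases for TUBB3 and 3574 against 1627 for TUBA1B. They were 2037 against 1563 bases for TUBB4B and 1748 against 1616 for TUBB2A. Levels therefore compare only roughly between genes, and the ranks, sums and shares below depend on these lengths. The size of this effect was not tested. In H460 controls, TUBB4B was at 673.0 ± 85.3 FPKM (SD, n = 3) and TUBB at 316.0 ± 41.2 FPKM. They were followed by TUBA1B at 89.1 ± 24.6 FPKM and TUBA1C at 84.1 ± 8.82 FPKM, which overlapped each other. TUBA1A (59.2 ± 5.15 FPKM) came next and did not overlap its neighbours, while TUBB6, TUBA4A and TUBB2A formed a run from 47.3 to 39.1 FPKM in which each overlapped the next. TUBB2B (1.93 ± 0.148 FPKM) and TUBB3 (1.67 ± 0.436 FPKM) were lowest and overlapped. In A549 controls, TUBB4B was at 620.8 ± 81.1 FPKM, TUBB at 376.2 ± 60.0 FPKM and TUBA1C at 84.6 ± 9.18 FPKM, none overlapping its neighbours. TUBA1B, TUBB6 and TUBA4A followed at 59.6, 54.0 and 52.6 FPKM, each overlapping the next. TUBA1A (35.8 ± 4.51 FPKM), TUBB2A (19.6 ± 3.37 FPKM), TUBB2B (4.09 ± 0.470 FPKM) and TUBB3 (1.30 ± 0.105 FPKM) closed the order without overlap.

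The untreated lines were compared directly to see how far the isotypes differed before treatment. Differences were tested with limma on log2(FPKM + 1) over all genes that passed the filter, with Benjamini-Hochberg adjustment, and a gene was called when it differed more than 2-fold with an adjusted p under 0.05. TUBB2A was higher in H460 than in A549, by 0.97 on the log2 scale (SE 0.119, limma adjusted p = 0.000152), as were TUBA1A (0.72, adjusted p = 0.000635) and TUBA1B (0.55, adjusted p = 0.0314). TUBB2B (-0.79, adjusted p = 0.000199) and TUBA4A (-0.30, adjusted p = 0.0431) were lower in H460. The 3 of 10 higher and 2 of 10 lower stood against 28.6% and 31.6% of all genes passing at any fold. On the log2(FPKM + 1) scale none of the 5 passed 2-fold, so 0 members were called in either direction, against 5.64% of 13532 genes called higher and 8.78% called lower in H460. That scale understates changes of low genes. The mean FPKM of TUBB2B was 2.12-fold lower in H460, and with a pseudocount of 0.1 it was at -1.04 (limma adjusted p = 0.000197). The calls at an adjusted p under 0.05 for TUBA1B and TUBA4A were lost without the filter on low values (adjusted p = 0.0562 and 0.0556). For TUBA1B it was also lost without A549 control library 1 or 2 or H460 control library 3 (adjusted p = 0.0907, 0.0971 and 0.0740). For TUBA4A it was lost in 5 of the 6 fits that left out 1 library and after median-of-ratios scaling (adjusted p = 0.115).

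**Figure D1:**
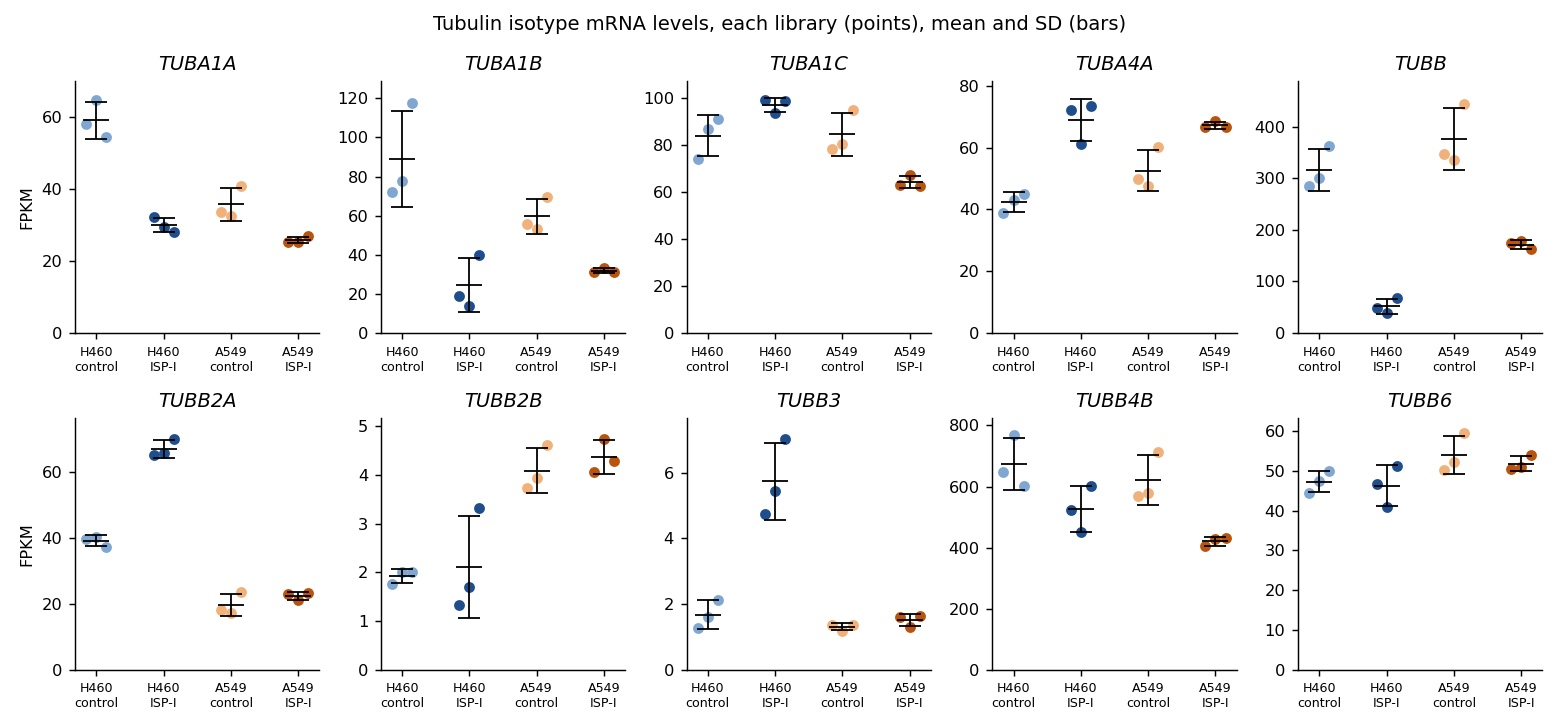
Level of each tubulin isotype (FPKM, y axis, from 0) in the 12 libraries of the 4 groups, with points for libraries and bars for the mean and SD of 3 libraries. TUBB dropped from a mean of 316.0 to 51.7 FPKM in H460 and in A549 from 376.2 to 171.7 FPKM, while TUBB3 rose from 1.67 to 5.73 FPKM in H460.

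In H460 cells treated with ISP-I, TUBB and TUBA1B fell more than 2-fold and TUBB3 rose more than 2-fold. At an adjusted p under 0.05 and any fold, 3 isotypes were lower (TUBB, TUBA1B and TUBA1A), 3 were higher (TUBB3, TUBB2A and TUBA4A) and 4 did not pass. Of all 13423 genes tested in H460, 10.5% were called higher and 15.2% lower, and 27.6% and 41.5% passed at any fold, so the 1 of 10 called higher, 2 of 10 called lower and 3 of 10 passing each way were not far from the whole table. Groups did not overlap for 8 of the 10 members, against 72.7% of all genes.

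TUBB, the beta I isotype (ENSG00000196230, chr6:30720352-30725426), was at 284.3, 301.2 and 362.6 FPKM in the H460 control libraries and at 48.8, 38.4 and 67.9 FPKM after ISP-I. The highest treated library was far below the lowest control. The mean was 6.12-fold lower, a log2 fold change of -2.62 (SE 0.212, limma adjusted p = 1.11e-05), and TUBB moved from the rank next to the top to the fifth, where it overlapped TUBB2A and TUBB6. Leaving out each library in turn gave -2.83 to -2.43, and median-of-ratios scaling gave -2.34.

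TUBA1B (ENSG00000123416, chr12:49127782-49131397), a broadly expressed alpha isotype, was at 72.1, 77.9 and 117.4 FPKM in H460 controls and at 19.2, 14.1 and 40.1 FPKM after ISP-I. Library 3 was the highest in each group, and the groups did not overlap. The log2 fold change was -1.92 (SE 0.349, limma adjusted p = 0.00120), with a range of -2.34 to -1.61 over the fits that left out 1 library. TUBA1A (ENSG00000167552, chr12:49184795-49189080), which encodes an alpha chain abundant in developing neurons, went from 58.3, 64.8 and 54.6 FPKM to 32.1, 29.6 and 28.2 FPKM. Here library 3 was the lowest in each group, in contrast to TUBA1B, and the groups were clearly apart. The log2 fold change of TUBA1A was -0.96 (SE 0.120, limma adjusted p = 0.000141), just short of 2-fold, which it passed without H460 control library 3 or ISP-I library 1 (-1.01 in each case), and it was -0.68 after median-of-ratios scaling.

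TUBA4A and TUBA1C did not follow the other alpha isotypes in H460. TUBA4A (ENSG00000127824, chr2:219249710-219278170), which lacks the final tyrosine codon, was at 38.9, 43.2 and 45.1 FPKM in controls and rose to 72.2, 61.2 and 73.6 FPKM. Treated libraries were all above the controls, with a log2 fold change of 0.69 (SE 0.127, limma adjusted p = 0.00137), or 0.97 after median-of-ratios scaling. TUBA1C (ENSG00000167553, chr12:49188736-49274600) was at 74.2, 86.8 and 91.2 FPKM and then at 99.2, 93.5 and 98.6 FPKM. The groups were separate by a narrow margin, but the log2 fold change of 0.21 did not pass (95% interval -0.08 to 0.50, limma adjusted p = 0.174), although it did after median-of-ratios scaling (0.49, adjusted p = 0.0109).

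Among the minor beta isotypes of H460, TUBB3 and TUBB2A rose. TUBB3 (ENSG00000258947, chr16:89921392-89938761), the class III isotype used as a neuronal marker and studied in taxane resistance, was at 1.27, 1.61 and 2.14 FPKM in controls and at 4.74, 5.45 and 7.01 FPKM after ISP-I. It was counted from 81 to 141 reads per control library and 375 to 461 per treated library, and the groups did not overlap. The mean was 3.43-fold higher, and the log2 fold change on the log2(FPKM + 1) scale, which understates changes of low genes, was 1.33 (SE 0.167, limma adjusted p = 0.000140). It was 1.78 when the recovered reads were tested with voom. TUBB2A (ENSG00000137267, chr6:3153666-3157544), another beta isotype of neural tissue, went from 39.7, 40.3 and 37.2 FPKM to 65.2, 65.8 and 70.1 FPKM. The control and treated libraries each lay close together and far from the other group. Its log2 fold change was 0.76 (SE 0.110, limma adjusted p = 0.000320) and passed 2-fold after median-of-ratios scaling, at 1.04.

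TUBB4B, TUBB6 and TUBB2B gave no call in H460. TUBB4B (ENSG00000188229, chr9:137241287-137243707), a broadly expressed isotype and the most abundant member in every group, was at 602.4 to 767.8 FPKM in controls and 450.9 to 600.4 FPKM after ISP-I. These ranges nearly met, and the log2 fold change of -0.36 did not pass (95% interval -0.79 to 0.07, limma adjusted p = 0.117). It passed without H460 ISP-I library 3 (-0.46, adjusted p = 0.0174), in a fit of all 12 libraries (adjusted p = 0.0428) and in voom with library totals (adjusted p = 0.0479), and it was -0.08 after median-of-ratios scaling (adjusted p = 0.745). TUBB6 (ENSG00000176014, chr18:12307669-12344320) was at 44.5 to 49.97 FPKM and 41.0 to 51.3 FPKM, a log2 fold change of -0.04 with an interval of -0.32 to 0.25. TUBB2B (ENSG00000137285, chr6:3224277-3231730) was at 1.76 to 2.02 FPKM in controls and 1.33, 1.69 and 3.31 FPKM after ISP-I, from 50 to 103 reads per library. ISP-I library 3 stood alone at the top, and the log2 fold change was 0.04 with it and -0.22 without it (interval -0.44 to 0.51 over all libraries).

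**Figure D2:**
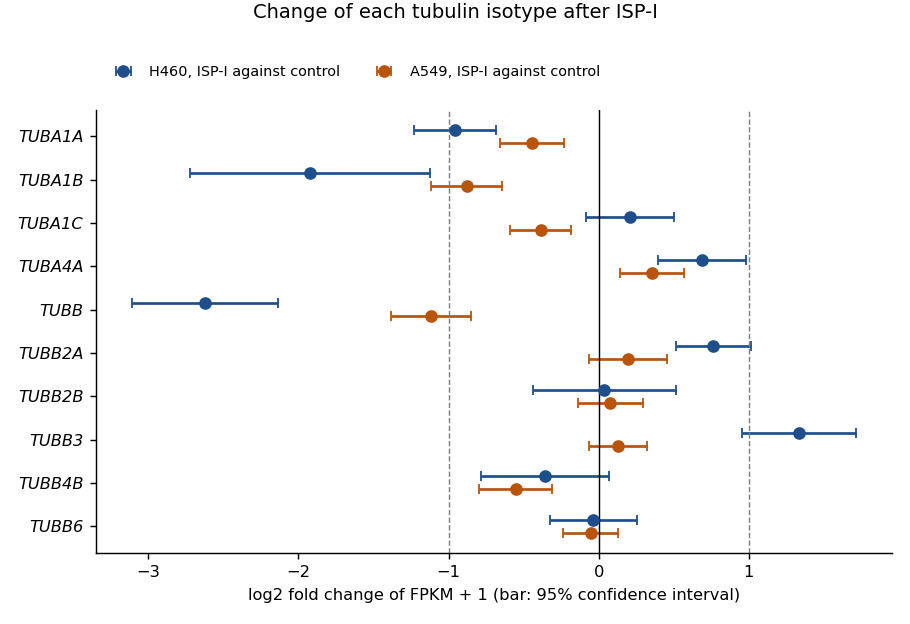
Log2 fold change of FPKM + 1 (x axis) of each isotype, ISP-I against control, in H460 (blue) and A549 (orange), with bars for the 95% confidence interval and dashed lines at 2-fold. TUBB lies at -2.62 in H460 and -1.12 in A549, and TUBB3 lies past the right dashed line in H460 at 1.33.

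In A549 cells treated with ISP-I, TUBB and 4 other abundant isotypes fell and TUBA4A rose. At any fold, 5 isotypes were lower (TUBB, TUBA1B, TUBB4B, TUBA1A and TUBA1C), 1 was higher (TUBA4A) and 4 did not pass. TUBB alone passed 2-fold, 1 of 10 called lower against 3.51% of 13705 genes, and 0 of 10 were called higher against 4.2%. At any fold, 30.5% of all genes passed as higher and 27% as lower, and groups did not overlap for 6 of the 10 members and 65.5% of all genes. The median log2 fold change of the 10 members was -0.22 in A549 and 0.00 in H460.

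TUBB was at 346.7, 336.7 and 445.3 FPKM in the A549 control libraries and at 174.0, 178.7 and 162.5 FPKM after ISP-I. Control library 3 was higher than the other 2 controls, but the groups were far apart. The mean was 2.19-fold lower, a log2 fold change of -1.12 (SE 0.114, limma adjusted p = 8.66e-05), and it fell just under 2-fold, to -0.99, without A549 control library 3. Control library 3 was also the highest control for the other 9 isotypes, as the plot of levels by library shows.

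TUBA1B went from 55.9, 53.2 and 69.8 FPKM in A549 controls to 31.0, 33.2 and 31.0 FPKM after ISP-I, a log2 fold change of -0.88 (SE 0.103, limma adjusted p = 0.000181). TUBB4B went from 570.1, 578.0 and 714.3 FPKM to 404.0, 428.2 and 431.1 FPKM, a log2 fold change of -0.55 (SE 0.106, limma adjusted p = 0.00245). Both groups were tight after ISP-I and below each control. TUBA1A (-0.44, adjusted p = 0.00379) and TUBA1C (-0.39, adjusted p = 0.00550) fell by less, TUBA1A from 32.6 to 40.9 FPKM down to 25.4 to 26.9 FPKM and TUBA1C from 78.2 to 95.1 FPKM down to 62.6 to 67.1 FPKM.

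TUBA4A went against the other alpha isotypes in A549 too. It was at 49.8, 47.7 and 60.3 FPKM in controls and at 66.7, 68.6 and 66.6 FPKM after ISP-I. Groups did not overlap, and the log2 fold change was 0.36 (SE 0.0922, limma adjusted p = 0.0108). The remaining 4 isotypes overlapped between groups and did not pass: TUBB2A at 0.20 (95% interval -0.06 to 0.46), TUBB3 at 0.13 (-0.07 to 0.32), TUBB2B at 0.08 (-0.14 to 0.30) and TUBB6 at -0.05 (-0.24 to 0.13). TUBB3 was counted from 77 to 107 reads per A549 library. TUBB2A passed without A549 control library 3, at 0.33 (limma adjusted p = 0.000611).

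Whether the lines differed in their response was tested in 1 limma fit of all 12 libraries, as the H460 change minus the A549 change. TUBB fell further in H460 than in A549, with a difference of -1.50 on the log2 scale (SE 0.260, limma adjusted p = 0.000422), and TUBB3 rose further in H460, by 1.21 (SE 0.193, adjusted p = 0.000231). These 2 differences exceeded 2-fold, 1 positive and 1 negative, against 5.93% and 10.1% of the 13953 genes tested. TUBA1C (0.60, adjusted p = 0.00429) and TUBB2A (0.57, adjusted p = 0.00720) also differed toward H460, and TUBA1A (-0.51, adjusted p = 0.00969) toward a deeper fall in H460. At any fold, 3 of 10 members passed as positive and 2 of 10 as negative, against 18.6% and 34.7% of all genes. The difference for TUBA1A was not called after median-of-ratios scaling (-0.21, adjusted p = 0.303).

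For TUBA1B, the response was more than 2-fold deeper in H460 by estimate (-1.04, 95% interval -1.95 to -0.14) but missed the threshold (adjusted p = 0.0510). Its spread in H460 came with library 3, and without H460 ISP-I library 3 the difference was -1.46 (adjusted p = 0.000462). The TUBA1B difference was smaller after median-of-ratios scaling, at -0.74 (limma adjusted p = 0.160). It was -0.73 without H460 ISP-I library 2 (adjusted p = 0.108) and -0.83 without H460 control library 3 (adjusted p = 0.126). TUBA4A rose in both lines, and the difference of 0.33 did not pass (interval 0.00 to 0.66, adjusted p = 0.0861), while it passed after median-of-ratios scaling (0.64, adjusted p = 0.00707) and without H460 ISP-I library 2 (0.41, adjusted p = 0.0333). TUBB4B (0.19, interval -0.26 to 0.64), TUBB2B (-0.04, interval -0.59 to 0.51) and TUBB6 (0.02, interval -0.29 to 0.33) did not pass.

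Isotypes with the same first codons did not always have like values. TUBB and TUBB4B share them, and their log2 fold changes were -2.62 and -0.36 in H460 and -1.12 and -0.55 in A549. TUBA1A, TUBA1B and TUBA1C share all 30 first bases, and they were at -0.96, -1.92 and 0.21 in H460 and at -0.44, -0.88 and -0.39 in A549. TUBB3 and TUBB6, the other pair with equal capitals, were at 1.33 and -0.04 in H460 and at 0.13 and -0.05 in A549. These groups are of equal bases only. All beta isotypes encode the same first residues, as do all alpha isotypes, and a part of autoregulation in the changes was not tested.

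Summed over isotypes, tubulin mRNA was lower after ISP-I in both lines, and the beta sum fell by more than the alpha sum. The alpha sum went from 243.6, 272.7 and 308.3 FPKM to 222.7, 198.3 and 240.6 FPKM in H460, while A549 went from 217.7, 214.0 and 266.1 FPKM to 186.1, 194.4 and 187.1 FPKM. The means differed by -19.8% and -18.7%, and in each line the highest treated library was below the lowest control. The beta sum was 1079 ± 72.7 FPKM in H460 controls and 698.2 ± 98.6 FPKM after ISP-I, and in A549 it was 1076 ± 149 and 673.0 ± 14.3 FPKM, differences of -35.3% and -37.5%, also without overlap. Beta mRNA per alpha mRNA was 3.96 ± 0.462 in H460 controls and 3.16 ± 0.149 after ISP-I, and 4.62 ± 0.0710 and 3.56 ± 0.0517 in A549. With 3 libraries against 3, the smallest p that an exact two-sided permutation test can give is 0.1, so none of these sums can pass 0.05. On the median-of-ratios scale the H460 log2 ratios shrank from -0.32 to -0.04 for alpha and from -0.63 to -0.35 for beta. In these bulk samples, fewer cells of one kind and less RNA per cell cannot be told apart.

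The make-up of the tubulin mRNA shifted as well, as shares of the alpha or beta sum, which do not depend on the scaling between libraries. All 10 shares were without overlap between control and ISP-I libraries in each line. Such shares exist only within these sums, so no value over all genes stands beside this count. For TUBB2B in H460 the margin was narrow, with 0.191% in the highest control and 0.193% in the lowest ISP-I library. As FPKM, TUBB2B and TUBB6 overlapped between groups in both lines, and TUBB2A and TUBB3 in A549. Because shares add to 100%, a fall of an abundant isotype raises the shares of the others. In the alpha sum, TUBA4A went from 15.5% ± 0.747 to 31.3% ± 0.991 in H460 and from 22.6% ± 0.287 to 35.6% ± 0.281 in A549 (exact two-sided permutation p = 0.1, n = 3, the smallest possible, for each share). TUBA1B went from 32.1% ± 5.21 to 10.8% ± 5.15 in H460 and from 25.6% ± 0.684 to 16.8% ± 0.293 in A549. TUBA1C moved in opposite directions, from 30.6% to 44.2% in H460 and from 36.4% to 33.9% in A549, and TUBA1A went from 21.8% to 13.7% and from 15.4% to 13.7%.

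In the beta sum, TUBB went from 29.4% ± 4.39 to 7.30% ± 1.08 in H460 and from 34.9% ± 0.822 to 25.5% ± 1.33 in A549. TUBB4B gained the most of the other 5, from 62.3% to 75.2% in H460 and from 57.7% to 62.6% in A549. TUBB2A was at 3.63% and then 9.70% in H460 and at 1.82% and then 3.34% in A549, and TUBB6 at 4.40% and then 6.65% and at 5.04% and then 7.70%. TUBB3 remained a small part throughout, at 0.155% in H460 controls and 0.822% after ISP-I, and at 0.122% and 0.226% in A549. TUBB2B was at 0.179% and 0.296% in H460 and at 0.381% and 0.648% in A549. As shares of reads, not scaled by gene length, the H460 differences between ISP-I and control were 1.35 percentage points for TUBB3 and 4.66 for TUBB6 in place of 0.667 and 2.26, and for TUBB they were -27.8 in place of -22.1. In A549 they were 0.191 for TUBB3 and 4.43 for TUBB6 in place of 0.104 and 2.67.

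**Figure D3:**
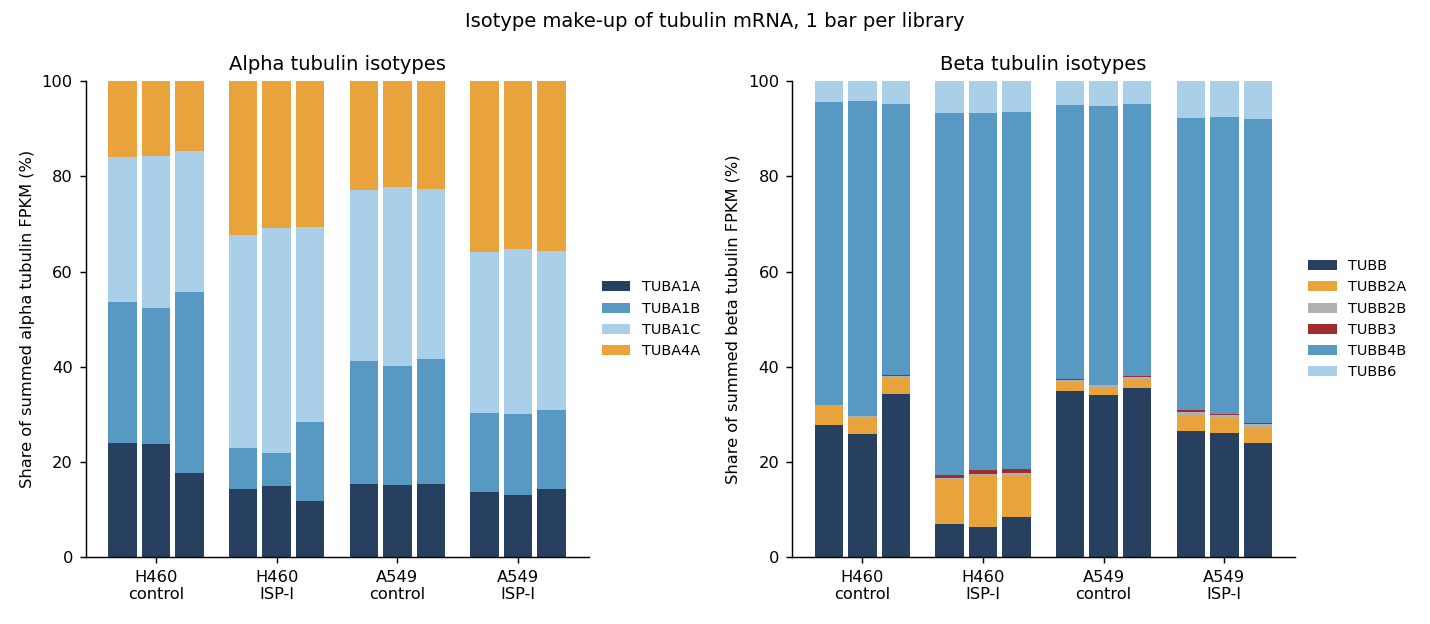
Share of each isotype in the summed alpha (left) or beta (right) tubulin FPKM (y axis, %), with 1 stacked bar per library and 3 bars per group. The TUBA4A band widens after ISP-I in both lines, from 15.5% to 31.3% in H460 and from 22.6% to 35.6% in A549, and the TUBB band narrows from 29.4% to 7.30% and from 34.9% to 25.5%.

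The order of the isotypes by mean FPKM changed in both lines, and TUBB lost the rank next to the top in H460 only. In H460 after ISP-I, TUBB4B stayed at the top with 525.3 ± 74.7 FPKM, and TUBA1C was next at 97.1 ± 3.15 FPKM. TUBA4A (69.0 FPKM), TUBB2A (67.0 FPKM), TUBB (51.7 FPKM) and TUBB6 (46.3 FPKM) formed a run in which each overlapped the next, followed by TUBA1A (28.2 to 32.1 FPKM) and TUBA1B (14.1 to 40.1 FPKM), which overlapped each other. TUBB3, at 5.73 ± 1.16 FPKM, was above TUBB2B at 2.11 ± 1.05 FPKM without overlap, whereas they overlapped in H460 controls. In A549 after ISP-I, TUBB4B (421.1 ± 14.9 FPKM) and TUBB (171.7 ± 8.31 FPKM) kept the top ranks and were followed by TUBA4A (67.3 FPKM) and TUBA1C (64.2 FPKM), which overlapped. Below them came TUBB6 (51.9 FPKM), TUBA1B (31.7 FPKM), TUBA1A (25.9 FPKM), TUBB2A (22.5 FPKM), TUBB2B (4.36 FPKM) and TUBB3 (1.52 FPKM), none overlapping the next.

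Among 6642 other genes with means of 5 FPKM or more, those whose log2(FPKM + 1) followed TUBB most closely over the 12 libraries were FAM234A (Pearson r = 0.995, Spearman rho = 0.972), the centromeric histone gene CENPA (r = 0.994, rho = 0.958) and MPST (r = 0.994, rho = 0.972). CENPA had means of 19.8 and 3.40 FPKM in H460 control and ISP-I and of 24.2 and 11.6 FPKM in A549. The sum of the 10 members was followed most closely by FKBP4, a co-chaperone of HSP90 that also binds tubulin (r = 0.988, rho = 0.958), PYCR1 (r = 0.975, rho = 0.916) and IER5L (r = 0.973, rho = 0.930). FKBP4 had means of 49.5 and 32.5 FPKM in H460, and of 51.8 and 30.6 FPKM in A549. The 12 libraries share lines and treatments, so these values describe the same 4 groups and carry no p.

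The genes that fold, modify, nucleate and regulate tubulin were examined as 7 lists, 138 genes in all, of which 137 were in the table. In H460, of 123 tested, 7 were called higher and 24 lower, and 21 and 64 passed at any fold, with a median log2 fold change of -0.39 against -0.15 over all genes. Over all H460 genes 10.5% and 15.2% were called and 27.6% and 41.5% passed. After median-of-ratios scaling, 26 and 43 of the list genes passed, with a median of -0.18 against 0.01. On that scale 4638 of all 13423 H460 genes passed as higher and 4363 as lower. In A549, of 127 tested, 3 were called higher and 7 lower, and 26 and 43 passed at any fold, with a median of -0.09 against 0.02. Over all A549 genes 4.2% and 3.51% were called and 30.5% and 27% passed. No list was tested against these shares.

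The gamma, delta and epsilon tubulins and other tubulin genes outside the 10 members were tested as 9 genes in H460, where 5 passed as lower and 1 as higher (41.5% and 27.6% of all genes), and as 10 in A549, where 4 passed as lower and 1 as higher (27% and 30.5%). TUBG1, gamma tubulin of the nucleating ring complex, fell from 33.1 ± 5.86 to 5.94 ± 1.06 FPKM in H460, a log2 fold change of -2.29 (limma adjusted p = 5.77e-06), and it fell by 0.99 on that scale in A549 (adjusted p = 0.000178). In the nucleation list of ring complex and augmin subunits and associated factors, 14 of 21 passed as lower and 0 as higher in H460 (41.5% and 27.6% of all genes), and 9 and 0 in A549 (27% and 30.5%). On the median-of-ratios scale these were 8 lower and 1 higher in H460 and 10 and 0 in A549. Over all genes, that scale gave 4363 lower and 4638 higher of 13423 in H460 and 3894 and 3969 of 13705 in A549. HAUS5, an augmin subunit, fell from 15.1 ± 1.37 to 3.75 ± 0.285 FPKM in H460 (-1.75, adjusted p = 3.89e-06), and TUBGCP3, a ring complex subunit, from 9.07 ± 0.247 to 2.86 ± 0.764 FPKM (-1.40, adjusted p = 6.26e-05).

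Of 21 tubulin folding genes tested in each line, 1 passed as higher and 9 as lower in H460 (median -0.33, against 27.6% and 41.5% of all genes), and 10 as higher and 2 as lower in A549 (median 0.23, against 30.5% and 27%). After median-of-ratios scaling the H460 counts were 4 and 3 (median -0.06) and the A549 counts 7 and 2 (median 0.20). Over all genes, that scaling gave 4638 higher and 4363 lower of 13423 in H460 and 3969 and 3894 of 13705 in A549. The line difference passed for 1 gene as positive and 11 as negative, against 18.6% and 34.7% of all genes. After that scaling it passed for 2 and 3, against 3786 and 3296 of all 13953 genes. TBCD, a cofactor that assembles and disassembles the dimer, fell in both, from 16.3 ± 0.993 to 3.55 ± 0.242 FPKM in H460 (-1.93, adjusted p = 1.81e-06), and in A549 from 17.6 ± 0.842 to 7.35 ± 0.634 FPKM (-1.16, adjusted p = 1.12e-05). TBCB, an alpha tubulin cofactor, fell from 32.1 ± 2.78 to 11.5 ± 2.11 FPKM in H460 (-1.42, adjusted p = 4.28e-05). PFDN2, a prefoldin subunit that delivers nascent tubulin to the chaperonin, rose from 102.3 ± 10.5 to 217.9 ± 10.7 FPKM in A549 (1.09, adjusted p = 2.99e-05).

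In the list of tubulin mRNA autoregulation, 3 of 12 genes passed as higher and 6 as lower in H460 (27.6% and 41.5% of all genes), and 1 and 2 in A549 (30.5% and 27%). On the median-of-ratios scale these were 3 and 2 in H460 and 1 and 2 in A549. Over all genes, that scale gave 4638 higher and 4363 lower of 13423 in H460 and 3969 and 3894 of 13705 in A549. TTC5, the factor that reads the nascent chain, fell by 1.19 on the log2 scale in H460 (adjusted p = 2.14e-05) and was at -0.09 in A549 (adjusted p = 0.376). Of the modifying enzymes, 12 of 17 passed as lower and 2 as higher in H460 (41.5% and 27.6% of all genes), and 10 of 19 and 1 in A549 (27% and 30.5%). Among genes of this list with means of 5 FPKM or more, those named by size of change in H460 were TTLL12, a member of the tubulin tyrosine ligase-like family, from 78.3 ± 7.58 to 26.7 ± 4.04 FPKM (-1.52, adjusted p = 2.79e-05), and AGBL5, a deglutamylase, from 12.1 ± 0.788 to 5.14 ± 0.537 FPKM (-1.09, adjusted p = 5.20e-05).

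Among stathmins, severing enzymes and depolymerising kinesins, 4 of 15 passed as higher and 8 as lower in H460 (27.6% and 41.5% of all genes), and 4 of 16 and 6 in A549 (30.5% and 27%). KIF18B, a mitotic depolymerising kinesin, fell in both lines, from 45.9 ± 5.88 to 4.50 ± 0.633 FPKM in H460 (-3.09, adjusted p = 7.24e-07), and in A549 from 36.7 ± 0.678 to 14.5 ± 0.533 FPKM (-1.29, adjusted p = 2.04e-06). KATNBL1, a katanin-related regulator, rose from 2.38 ± 0.461 to 15.1 ± 2.07 FPKM in H460 (2.25, adjusted p = 3.34e-06), and STMN1, which sequesters tubulin dimers, fell from 29.4 ± 3.35 to 8.29 ± 0.822 FPKM in A549 (-1.71, adjusted p = 5.21e-06). STMN1 was also lower in H460, at -1.01 (limma adjusted p = 5.62e-05).

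Among microtubule-associated and plus-end proteins, 10 of 28 passed in each direction in H460 (27.6% of all genes as higher and 41.5% as lower), and 9 as higher and 10 as lower in A549 (30.5% and 27%). DCLK1, a doublecortin-like kinase that binds microtubules, rose from 0.550 ± 0.0390 to 46.2 ± 6.87 FPKM in H460, a log2 fold change of 4.92 (adjusted p = 9.48e-08), and by 0.47 in A549 (adjusted p = 0.00233). EML3 fell from 9.95 ± 0.668 to 2.19 ± 0.309 FPKM in H460 (-1.78, adjusted p = 4.28e-06). In A549, CLIP2, a plus-end protein, rose from 7.003 ± 0.400 to 16.4 ± 0.370 FPKM (1.12, adjusted p = 6.39e-06), and MAP4, a lattice-binding protein, fell from 28.2 ± 0.864 to 13.5 ± 0.535 FPKM (-1.02, adjusted p = 7.53e-06).

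**Figure D4:**
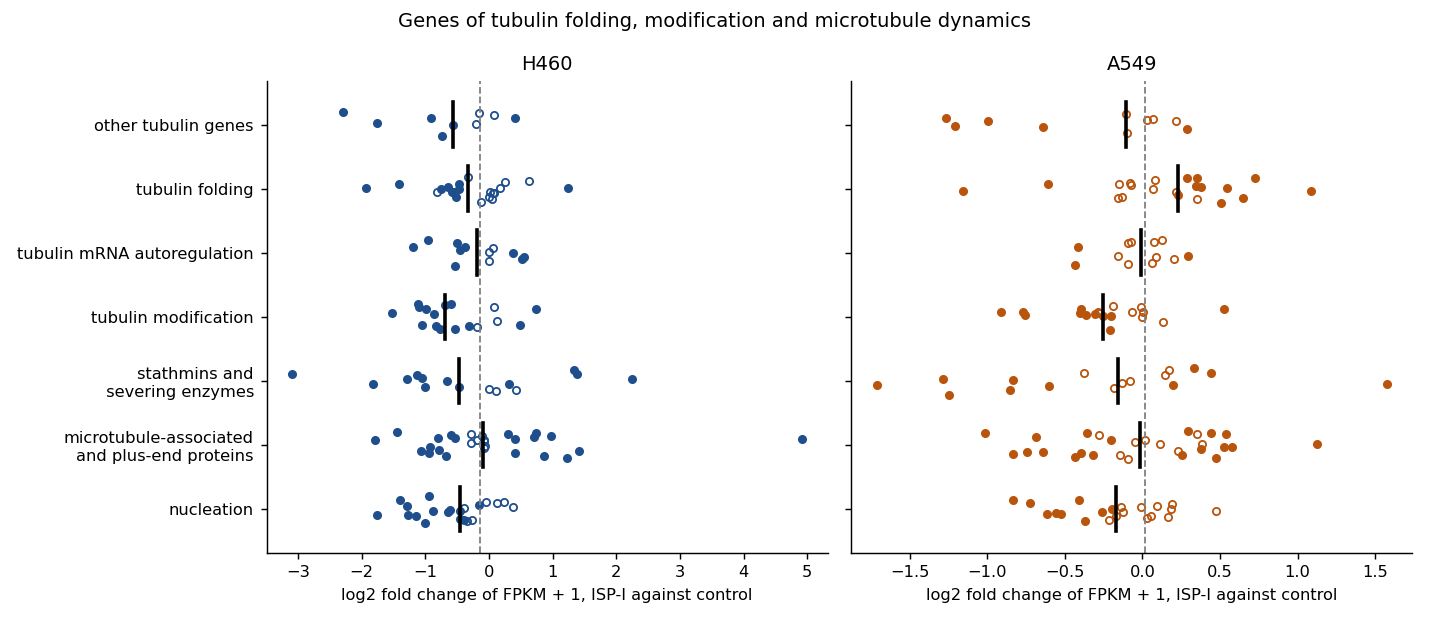
Log2 fold change of FPKM + 1 (x axis, with its own range for each line) for the genes of 7 lists in H460 (left) and A549 (right), with filled points for an adjusted p under 0.05, open points for others, short bars for list medians and a dashed line for the median of all genes. The folding list has its median at -0.33 in H460 and 0.23 in A549, and DCLK1 is the point at 4.92 in H460.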

How the data were processed

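Paired-end reads of 150 bases were filtered (FastQC), mapped to hg38 (HISAT2) and assigned to genes (HTSeq 0.9.1) by the authors, who deposited FPKM, which are reads per gene length and per library total of reads on genes. The annotation version and the strand setting are not given in the sources used here. The values carry no scaling between libraries beyond the total. All values were whole multiples of 1 read (tolerance 0.05), so reads were recovered, but FPKM are not counts and the tests were run on log2(FPKM + 1). Of the lines, 4 fragments without a gene were left out, and GO and KEGG columns were not used. The columns name line and treatment only, so libraries were numbered by their place in the group.

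Each comparison was fitted with limma 3.58.1 (R 4.3.3, with a trend of variance on level) over genes averaging 0.1 FPKM or more and adjusted by Benjamini-Hochberg. The untreated lines were compared in a fit of their 6 libraries. Genes were called past 2-fold and an adjusted p under 0.05. Same-group libraries differed by more than counting noise (chi-square per gene 3.03 to 98.7). Alternatives were a pseudocount of 0.1, a minimum of 1 FPKM or none, median-of-ratios scaling, voom on recovered reads (at least 10 reads in 3 libraries), all 12 libraries in 1 fit, shares of reads and leaving out each library. Scaling totals and lists in these ways was chosen after seeing the data.

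The members and lists were chosen with earlier results of these data known. Text names all members and, in each line, up to 2 genes a list with the largest called change, an average of 5 FPKM or more and groups that did not overlap. TTC5, and the values given for TUBG1 and DCLK1 in A549 and for CLIP2, MAP4 and STMN1 in H460, were named after their values were seen. For likeness, the 3 genes with the highest Pearson r were taken for TUBB and for the summed members. Sequences came from GENCODE version 44 on hg38 with Biopython 1.88, and tables and figures were made with Python 3.11.15, pandas 2.3.3, numpy 2.4.6 and matplotlib 3.10.9. Of the coding ends, 4 are not reported here. Intervals at 95% cover the spread between libraries.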

Additional observations from a re-analysis of the deposited data

Results flagged for a closer look

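The change after ISP-I differed between the lines, by the interaction test in limma over all 12 libraries, for 5 of the 10 isotypes, 3 with a positive and 2 with a negative difference, against 18.6% and 34.7% of all genes. As H460 change minus A549 change on the log2 scale, the difference was -1.50 for TUBB (adjusted p = 0.000422), -0.51 for TUBA1A (adjusted p = 0.00969), 0.60 for TUBA1C (adjusted p = 0.00429), 0.57 for TUBB2A (adjusted p = 0.00720) and 1.21 for TUBB3 (adjusted p = 0.000231). TUBB and TUBA1A fell in both lines and further in H460, TUBB3 and TUBB2A rose in H460 and did not pass in A549, and TUBA1C fell in A549 and did not pass in H460. Groups of 3 libraries are too small for a test of single outlying libraries.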

How the results depend on the processing

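No paired analysis was possible because the columns carry no replicate number. The H460 members called higher were 2 rather than 1 under median-of-ratios scaling and under voom with those factors, TUBB2A being the one added. Members with a negative difference between lines were 2 rather than 1 with a minimum of 1 FPKM and under voom with library totals (range 1 to 2 leaving out a library, with 2 without A549 control library 3, H460 control library 1 or H460 ISP-I library 3), TUBA1B being added. Between untreated lines, 1 member rather than 0 was called higher in H460 with a pseudocount of 0.1, median-of-ratios scaling and both voom fits (range 0 to 1, with 1 without library 3 of either control), TUBB2A being the one. With the pseudocount and both voom fits, 1 rather than 0 was called lower, TUBB2B being the one. The A549 members called lower ranged from 0 to 1, at 0 without A549 control library 3. List genes called higher in H460 were 15 rather than 7 under voom with median-of-ratios factors, and lower 37 rather than 24 with a pseudocount of 0.1 and under voom with totals. In A549, higher were 6, 5 and 5 rather than 3 and lower 12, 16 and 15 rather than 7 with the pseudocount, voom with median-of-ratios factors and voom with totals. Over all genes calls rose in these settings too. All H460 genes called higher were 3056 rather than 1409, and lower 3464 and 3651 rather than 2047. All A549 genes called higher were 1336, 1316 and 1393 rather than 575, and lower 1062, 1277 and 1197 rather than 481. The pseudocount fits tested 13423 genes in H460 and 13705 in A549, and the voom fits 12939 and 13138. The H460 alpha and beta sums were at -0.035 and -0.35 (log2 ratios) after median-of-ratios scaling.

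Signs turned for values near 0 that passed no test: H460 TUBB2B (-0.0063 under voom with totals, -0.22 to 0.22 leaving out a library), H460 TUBB6 (0.24 and 0.25 with median-of-ratios factors in limma and voom, -0.11 to 0.048), A549 TUBB6 (-0.10 to 0.016), the line difference of TUBB2B (0.18 and 0.21 with those factors, -0.30 to 0.14) and of TUBB6 (-0.057 to 0.10), and untreated TUBA1C (0.041 in limma and 0.041 in voom with those factors, -0.069 to 0.078). The causes were not tested. Over all genes, median-of-ratios scaling turned 1409 called higher and 2047 lower in H460 into 1954 and 1504, and for the line difference 827 and 1407 into 1298 and 825. Depth limits TUBB3 and TUBB2B most, with at most 461 and 156 reads in a library.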
